A study of Mus musculus with 6 samples.

Results

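The MAP kinases, the kinases that activate them and the dual specificity phosphatases were examined in mouse lung by RNA sequencing. Members were the protein-coding genes named Map4k, Map3k, Map2k, Mapk or Dusp followed by a number, with symbols assigned by Ensembl identifier. The rule found 67 members among the 55573 genes of the count table: 5 Map4k, 18 Map3k, 7 Map2k, 13 Mapk and 24 Dusp genes. Of these, 62 passed the filter on low counts and were tested, and 5 did not pass. Lungs came from wild type C57BL/6 mice, 9 to 10 weeks old, kept in 12-h light. The SS-31H_CS mice (3 libraries) breathed cigarette smoke and received SS-31, a peptide antioxidant that accumulates in mitochondria, at 5 mg/kg once daily. The CS mice (3 libraries) breathed cigarette smoke for 75 min in 2 sessions a day, on 5 days a week for 4 weeks. Both groups were smoke-exposed, no smoke-free lungs were analysed here, and the schedule is spelled out for the CS group alone. The labels do not say that each library came from a separate mouse, so p-values measure only the spread between these samples, which may be technical. They give no sex, batch or hour of sampling.

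MAP kinases are the last step of a relay of protein kinases: a MAP4K or a small GTPase activates a MAP3K, which phosphorylates a MAP2K, which phosphorylates a MAP kinase on a threonine and a tyrosine. The ERK branch answers mainly to growth factors, whereas the JNK and p38 branches answer mainly to stress and inflammatory cytokines. The MAP kinase phosphatases, a group of the dual specificity phosphatases, remove both phosphates, and several of their genes are induced by the kinases they switch off. Transcript levels were measured here, and phosphorylation was not.

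The libraries held 15611925 to 17360052 counts, so 3 counts corresponded to 0.172 to 0.185 CPM (read counts scaled to a common library size with TMM). Among the CS libraries, CS 3 stood apart. Its counts differed from those of CS 1 and CS 2 with a chi-square of 39.98 to 44.7 per gene. Between CS 1 and CS 2 the chi-square was 7.45. SS-31H_CS 3 was nearly as distant from its own group, at 33.6 from SS-31H_CS 1 and 39.9 from SS-31H_CS 2. Between SS-31H_CS 1 and SS-31H_CS 2 the chi-square was 22.3. Markers of T and NK cells, B cells and red cells were lowest in CS 3, and neutrophil markers summed to 567 CPM in SS-31H_CS 3, against 1551 to 3831 CPM in the other 5 libraries. Of 16 circadian clock genes tested, 13 had an unadjusted p under 0.05 in edgeR's quasi-likelihood test, against 18.2% of all genes. At an adjusted p under 0.05 (Benjamini-Hochberg), 7 of the clock genes passed, of 26 genes that passed in all. The part of the clock genes in the results on MAP kinase genes was not tested.

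Promoters are shown for 4 members. Map3k6 had the lowest log2 fold change of all members, Dusp8 the lowest among the phosphatases, and Dusp1 the highest level among the phosphatases, while Dusp18 was chosen after its values and its motif were seen. Each window runs from 250 bases before to 50 bases after the RefSeq start (build GRCm38.p6). Entries existed for 52 of the 67 members, with 67 promoters. The 15 members without an entry, among them Mapk3, Mapk15, Map3k19 and Dusp26, were not searched for motifs. Capitals mark the cyclic AMP response element TGACGTCA in Dusp8 and Dusp1, the E-box CACGTG in Dusp1, and the X-box (GTNNCC, then NN, then GGNAAC), read on either strand, in Dusp18. Windows are Dusp8 at chr7:142095235-142095534 on the minus strand, Dusp1 at chr17:26508423-26508722 on the minus strand, Map3k6 at chr4:133240568-133240867 on the plus strand and Dusp18 at chr11:3894990-3895289 on the plus strand.
Dusp8: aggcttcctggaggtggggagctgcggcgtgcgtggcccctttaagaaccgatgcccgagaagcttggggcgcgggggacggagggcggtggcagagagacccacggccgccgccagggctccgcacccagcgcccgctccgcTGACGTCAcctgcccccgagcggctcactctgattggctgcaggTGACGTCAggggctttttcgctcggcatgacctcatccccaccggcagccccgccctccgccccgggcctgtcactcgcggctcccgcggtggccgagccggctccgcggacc
Dusp1: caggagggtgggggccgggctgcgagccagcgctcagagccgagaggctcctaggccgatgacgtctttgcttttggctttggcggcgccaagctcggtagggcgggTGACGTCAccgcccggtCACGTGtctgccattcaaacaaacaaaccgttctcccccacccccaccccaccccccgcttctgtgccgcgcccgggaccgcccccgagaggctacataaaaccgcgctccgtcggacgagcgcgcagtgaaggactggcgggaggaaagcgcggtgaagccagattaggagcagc
Map3k6: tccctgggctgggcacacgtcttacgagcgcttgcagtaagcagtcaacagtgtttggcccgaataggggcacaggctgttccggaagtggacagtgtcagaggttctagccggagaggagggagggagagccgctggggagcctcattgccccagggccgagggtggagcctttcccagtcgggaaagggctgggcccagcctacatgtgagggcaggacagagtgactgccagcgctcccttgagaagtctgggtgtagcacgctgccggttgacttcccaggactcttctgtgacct
Dusp18: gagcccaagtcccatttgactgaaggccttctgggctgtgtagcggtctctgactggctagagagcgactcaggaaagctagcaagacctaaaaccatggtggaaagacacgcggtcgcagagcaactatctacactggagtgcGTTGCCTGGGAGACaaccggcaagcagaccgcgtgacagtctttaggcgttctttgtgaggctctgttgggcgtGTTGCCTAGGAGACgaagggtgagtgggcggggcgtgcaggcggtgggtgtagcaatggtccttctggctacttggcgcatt

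The cyclic AMP response element began 107 and 63 bases before the start of Dusp8, 143 bases before that of Dusp1 and 29 bases before that of Mapk10. It was present in 3 of the 67 member promoters (4.48%) and in 1.79% of all 32851 promoters of the same length. The X-box, the letters bound by RFX factors, began 106 and 32 bases before the start of Dusp18, and was also found in Dusp6 and Map2k4. It was present in 3 member promoters (4.48%), against 1.29% of all promoters. The glucocorticoid receptor hexamer AGAACA was found in 14.9% of member promoters and in 19.0% of all, the AP-1 letters TGANTCA in 5.97% and 7.81%, the E-box in 7.46% and 7.15%, and the D-box TTATGNAA in 1.49% and 3.38%. The forkhead letters TGTTTAC were in none of the member promoters and in 3.65% of all. None of these motifs was found in the Map3k6 window. All motifs were searched on both strands, the E-box and the response element read the same on both, and no match overlapped another in the windows printed. They were chosen with results of these data known, and a match describes letters only.

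Per transcript length, in the deposited FPKM, the family was dominated by Mapk3, the gene of ERK1. Mapk3 had 177, 144 and 176 FPKM in the SS-31H_CS lungs, against 164, 164 and 124 FPKM in the CS lungs, and was the only member with a mean above 100 FPKM. The groups overlapped, and CS 3 was the lowest library. Mapk3 made up 44.2% to 54.3% of the summed FPKM of the 13 Mapk genes. Among the stress kinases Mapk14, the main p38 gene, averaged 35.3 ± 5.25 FPKM in SS-31H_CS and 40.01 ± 2.71 FPKM in CS lungs (SD, n = 3 each). The JNK gene with the highest level was Mapk9, at 79.6% to 86.1% of the summed JNK FPKM.

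Dusp1 led the phosphatases at 64.3 ± 21.3 FPKM in SS-31H_CS and 89.4 ± 22.3 FPKM in CS lungs, followed by Dusp6 with a mean of 54.1 FPKM over all libraries and Dusp7 with 44.3 FPKM. Dusp6 and Dusp7 act on ERK in the cytoplasm. The spread of the Dusp1 libraries covers the order of Dusp1 and Dusp6 in the SS-31H_CS lungs, so these neighbours do not differ beyond it. Map4k4 (19.4 FPKM), Map3k11 (32.2 FPKM) and Map2k3 (31.1 FPKM) had the highest mean of their tiers, with Map3k3 (31.5 FPKM) within the spread of Map3k11. In all, 27 members averaged 10 to 100 FPKM, 28 averaged 1 to 10 FPKM and 11 averaged under 1 FPKM.

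**Figure D1:**
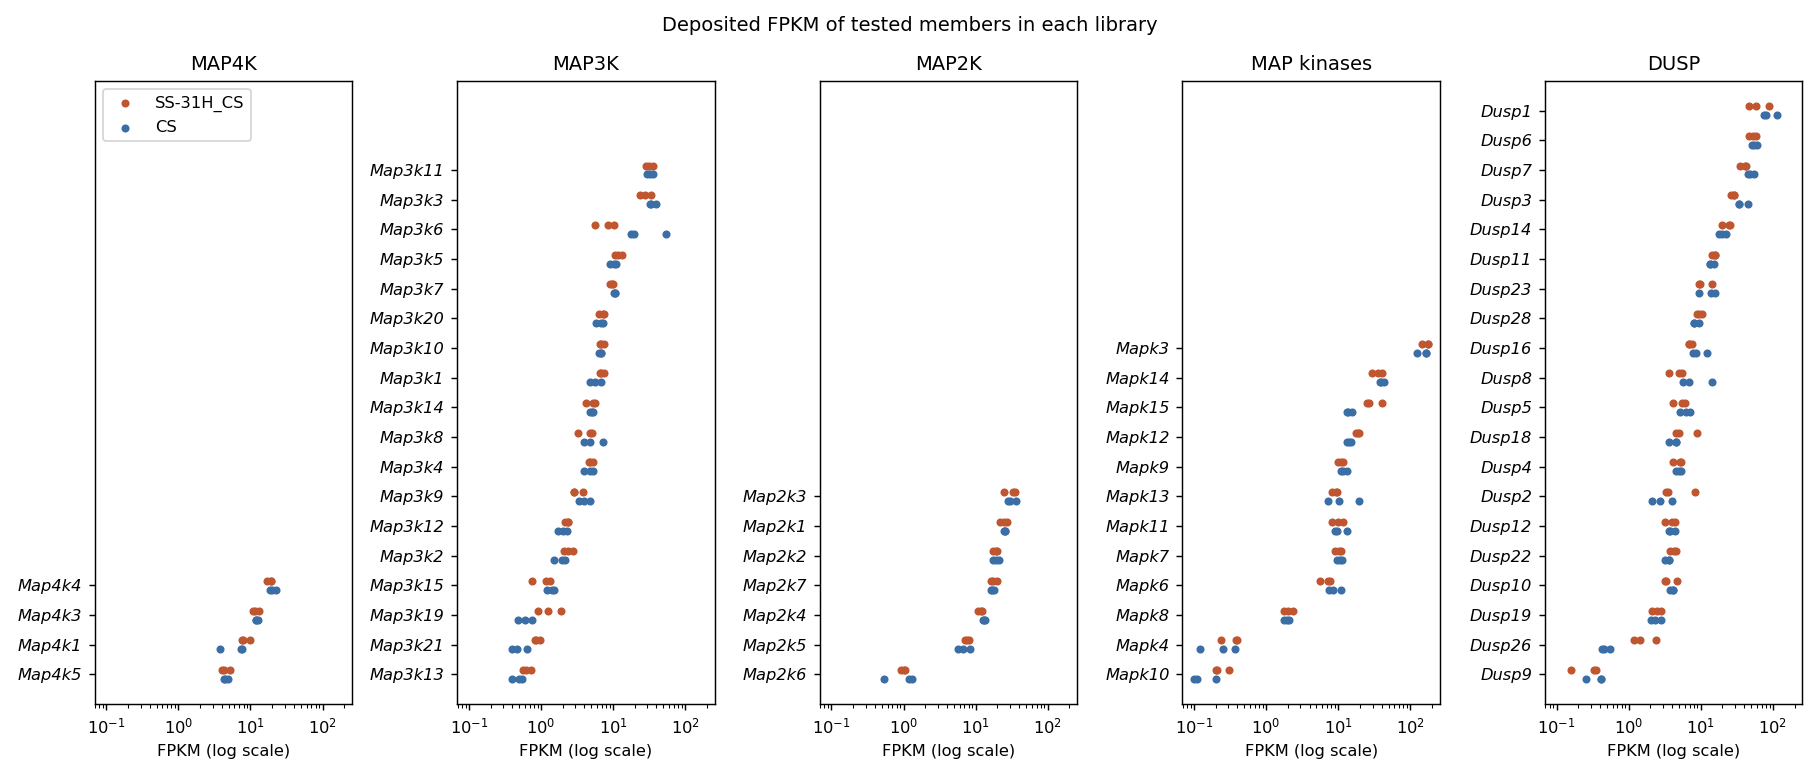
Deposited FPKM (log axis) of tested members in each library, by tier and ordered by mean; orange points are the 3 SS-31H_CS libraries and blue points, below them, the 3 CS libraries. Mapk3 is the only member whose mean lies above 100 FPKM, and for most members the points of both groups interleave.

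No member passed an adjusted p of 0.05 when p-values of edgeR's quasi-likelihood test were adjusted by Benjamini-Hochberg over all 16965 genes tested, against a background of 26 genes (0.153%). Mapk15 and Dusp26 had an adjusted p under 0.1, as did 1.76% of all genes. DESeq2 called 4 members at an adjusted p under 0.05 (Map3k6, Map3k19, Mapk15 and Dusp26), against 5.59% of all genes, and limma voom called 0, against 0.0354%. At an unadjusted p under 0.05 there were 12 members of 62 (19.4%), close to the 18.2% of all genes. Of these, 5 were higher in SS-31H_CS lungs (background 9.93%) and 7 lower (background 8.23%).

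The groups did not overlap for 17 members (27.4%), 7 higher and 10 lower, against 26.1% of all genes. Log2 fold changes, SS-31H_CS over CS, ran from -1.98 to 1.74 with a median of -0.08, against 0.01 over all genes, and without CS 3 the median was -0.04. They were positive for 26 members (41.9%), against 51.4% of all genes. The shares of members called thus lay near the shares over all genes tested. In bulk lung RNA, fewer cells of a type and less RNA per cell cannot be told apart, which applies to every value given here.

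**Figure D2:**
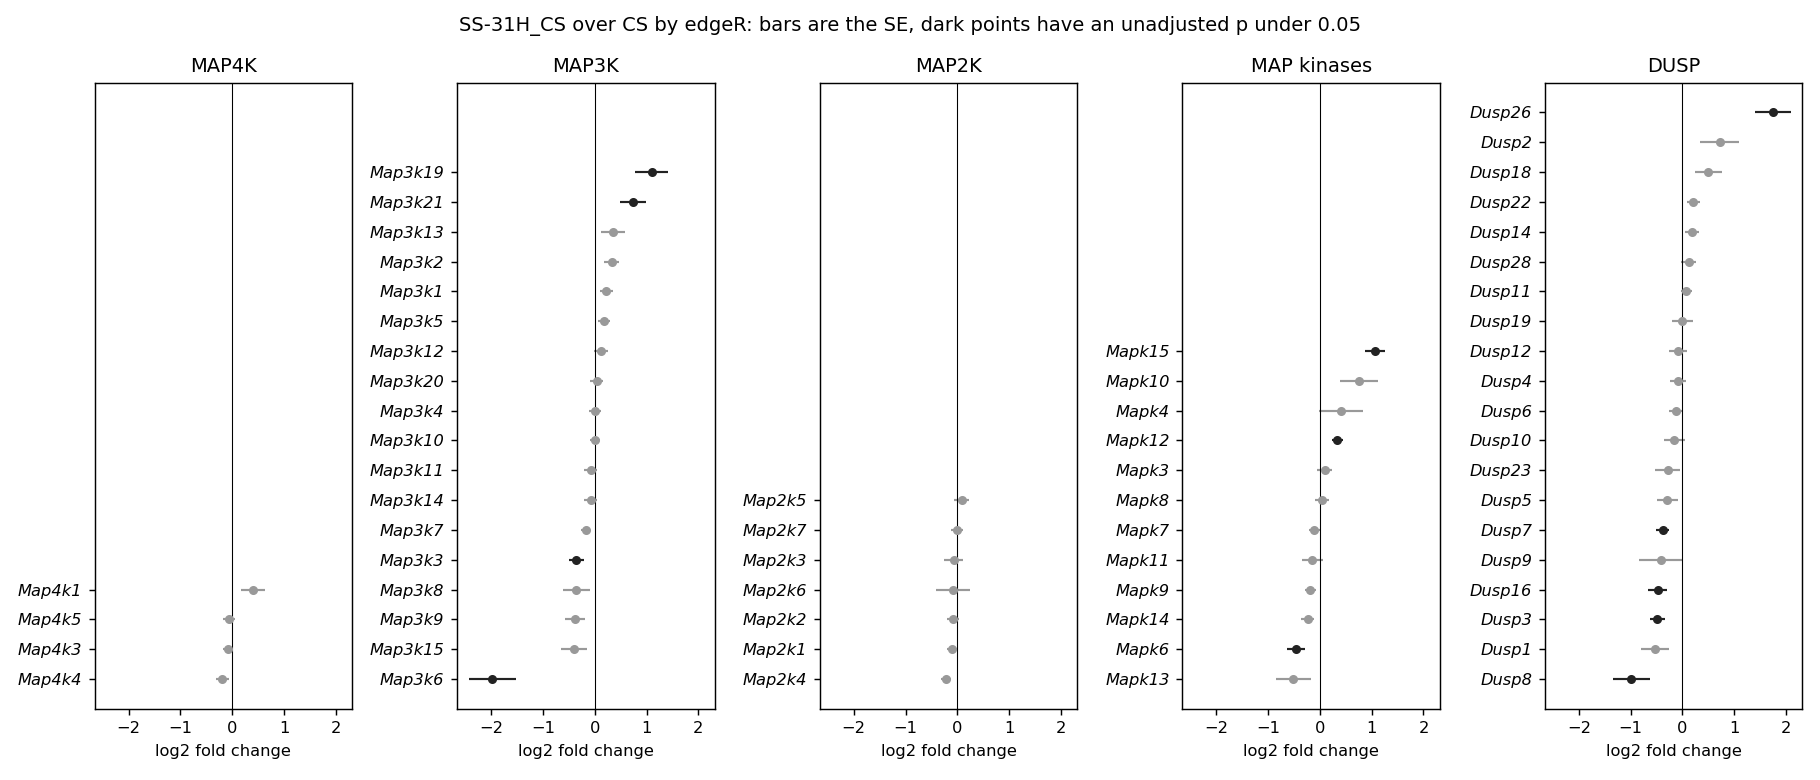
Log2 fold change (SS-31H_CS over CS, edgeR) of tested members by tier, with the SE as bars; dark points have an unadjusted p under 0.05. Dusp26 lies farthest to the right at 1.74 and Map3k6 farthest to the left at -1.98.

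Of the MAP4K genes, which couple surface receptors to MAP3Ks, 4 were tested. Map4k1, a kinase of blood cells, had 24.5, 29.1 and 23.7 CPM in SS-31H_CS lungs, against 22.8, 23.0 and 12.3 CPM in CS lungs. The groups did not overlap, by a narrow margin except for CS 3, and the log2 fold change was 0.41 with an SE of 0.23 (edgeR adjusted p = 0.392), and 0.16 without CS 3. The 12 markers of T and NK cells, which are among the cells that carry Map4k1, summed to 108 to 248 CPM in SS-31H_CS and 61.4 to 151 CPM in CS lungs, with CS 3 lowest, and their part in this difference was not tested. Map4k4, a kinase of the JNK branch, had 183, 178 and 162 CPM in SS-31H_CS lungs, against 179.6, 188 and 229 CPM in CS lungs, with overlap. Map4k3 and Map4k5 had log2 fold changes of -0.08 and -0.06.

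All 18 MAP3K genes were tested, and 4 had an unadjusted p under 0.05 (22.2%, near the 18.2% of all genes). Map3k6 encodes ASK2, the partner of the oxidative stress kinase ASK1 (chr4:133240818-133252929, plus strand, build GRCm38). It had 47.5, 37.2 and 25.9 CPM in SS-31H_CS lungs, against 83.6, 88.7 and 263 CPM in CS lungs. All 3 SS-31H_CS libraries lay below all 3 CS libraries, and CS 3 was about 3 times as high as the other CS libraries. Its log2 fold change was -1.98 with an SE of 0.46 (edgeR adjusted p = 0.109), and -1.23 without CS 3 (adjusted p = 0.114). The adjusted p was 0.0224 in DESeq2 and 0.134 in limma voom, and ran from 0.00562 to 0.316 over the alternatives. Map3k5, which encodes ASK1 itself, had 79.7, 68.9 and 65.6 CPM in SS-31H_CS lungs, against 64.0, 67.1 and 57.4 CPM in CS lungs. These overlapped, with a log2 fold change of 0.18 (edgeR adjusted p = 0.432). Map3k15, the third ASK gene, differed by a log2 fold change of -0.40 (adjusted p = 0.442), with 13.9% of its exon bases opposite Pdha1. The difference between the ASK genes was not tested.

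Map3k19, a little-studied MAP3K, had 4.79, 6.36 and 10.2 CPM in SS-31H_CS lungs, against 3.31, 3.95 and 2.72 CPM in CS lungs. Every SS-31H_CS library lay above every CS library, SS-31H_CS 3 being the highest. The log2 fold change was 1.10 with an SE of 0.32 (edgeR adjusted p = 0.152, and 0.0375 to 0.379 over the alternatives). Map3k21, a mixed lineage kinase, had 4.85, 5.19 and 4.70 CPM in SS-31H_CS lungs, against 2.30, 3.67 and 2.84 CPM in CS lungs. Here the SS-31H_CS libraries were close together and all above the CS libraries (log2 fold change 0.74 ± 0.25 SE, edgeR adjusted p = 0.187). Map3k3, a MAP3K of the ERK5 branch, had 136, 105 and 94.5 CPM in SS-31H_CS lungs, against 131, 155 and 142 CPM in CS lungs. SS-31H_CS 1 lay within the CS range, so the groups overlapped (log2 fold change -0.35 ± 0.15 SE, edgeR adjusted p = 0.269).

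Map3k2, the near relative of Map3k3, had 29.3, 37.0 and 33.4 CPM in SS-31H_CS lungs, against 30.2, 27.4 and 21.98 CPM in CS lungs, a log2 fold change of 0.33 (adjusted p = 0.299, and 0.20 without CS 3). It thus pointed the other way from Map3k3, and both groups overlapped. Map3k7 encodes TAK1, which relays interleukin and Toll-like receptor signals. It had 58.9, 59.6 and 63.8 CPM in SS-31H_CS lungs, against 66.5, 67.3 and 72.4 CPM in CS lungs. The groups did not overlap, although the log2 fold change was small, at -0.18 (adjusted p = 0.362). Map3k8 encodes TPL2, which drives ERK in macrophages. It had 22.8, 20.4 and 14.5 CPM in SS-31H_CS lungs, against 18.3, 21.3 and 34.3 CPM in CS lungs, with overlap and a high CS 3 (log2 fold change -0.36, adjusted p = 0.495, and -0.04 without CS 3). Map3k11, a mixed lineage kinase, had 155, 132 and 126 CPM in SS-31H_CS lungs, against 145, 157 and 135 CPM in CS lungs, again with overlap. Of its exon bases, 11.8% lie opposite genes on the other strand. The other 8 MAP3K genes had log2 fold changes between -0.39 (Map3k9) and 0.36 (Map3k13), none with an unadjusted p under 0.05.

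The 7 MAP2K genes, each of which phosphorylates 1 or few MAP kinases, varied least. Their log2 fold changes lay between -0.22 and 0.08, and none had an unadjusted p under 0.05. Map2k4, which activates JNK and p38, had 50.2, 53.0 and 56.1 CPM in SS-31H_CS lungs, against 59.2, 60.5 and 65.4 CPM in CS lungs. The groups did not overlap, and this was the largest MAP2K difference (log2 fold change -0.22 ± 0.10 SE, edgeR adjusted p = 0.294). Map2k7, the other JNK activator, had a log2 fold change of 0.00, but 35.2% of its exon bases are shared with Gm49320 on the same strand. Map2k1, an activator of ERK, had 83.0, 89.2 and 74.5 CPM in SS-31H_CS lungs, against 88.2, 86.5 and 89.0 CPM in CS lungs. SS-31H_CS 2 was the highest library, and the groups overlapped. Of the p38 activators, Map2k3 had 109, 78.2 and 116 CPM in SS-31H_CS lungs, against 99.7, 93.2 and 126 CPM in CS lungs. Map2k6 had 3.61, 3.30 and 3.12 CPM in SS-31H_CS lungs, against 4.13, 4.53 and 1.98 CPM in CS lungs. The sign of both p38 activators depended on single libraries: Map2k3 was at 0.06 without CS 3 and Map2k6 at 0.12 without CS 2. Map2k2 and Map2k5, activators of ERK and of ERK5, had log2 fold changes of -0.09 and 0.08.

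Of the 13 MAP kinases, the atypical kinase Mapk15 had the lowest p. Mapk15 encodes ERK8, whose Xenopus counterpart is known to be needed for cilium formation (chr15:75993769-75999154, plus strand). It had 67.9, 61.6 and 103 CPM in SS-31H_CS lungs, against 34.5, 39.9 and 37.0 CPM in CS lungs. Every SS-31H_CS library lay well above the CS libraries, which were within a narrow range, and SS-31H_CS 3 was the highest. The log2 fold change was 1.06 with an SE of 0.19 (edgeR adjusted p = 0.0808), and 0.80 without SS-31H_CS 3. The adjusted p ran from 0.000177 in DESeq2 to 0.220 over the alternatives. Mapk12, a p38 gene, had 72.9, 64.2 and 70.9 CPM in SS-31H_CS lungs, against 54.1, 50.6 and 60.01 CPM in CS lungs. Its groups did not overlap either (log2 fold change 0.34 ± 0.11 SE, edgeR adjusted p = 0.177). Mapk6 encodes ERK3, another atypical MAP kinase. It had 47.9, 49.0 and 37.2 CPM in SS-31H_CS lungs, against 50.8, 56.5 and 77.6 CPM in CS lungs. The groups were separate by a small gap, SS-31H_CS 3 being lowest and CS 3 highest (log2 fold change -0.46 ± 0.18 SE, edgeR adjusted p = 0.239, and -0.27 without CS 3).

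None of the other MAP kinases had an unadjusted p under 0.05. Mapk3 had 398, 309 and 396 CPM in SS-31H_CS lungs, against 376, 368 and 294 CPM in CS lungs. Its log2 fold change of 0.09 had the opposite sign (-0.02) without CS 3. Mapk8, a JNK gene, had 20.4, 22.2 and 27.1 CPM in SS-31H_CS lungs, against 20.9, 23.4 and 23.3 CPM in CS lungs, with overlap. Mapk9 was lower in all SS-31H_CS libraries than in any CS library (log2 fold change -0.19, adjusted p = 0.394), and Mapk10, the neuronal JNK gene, differed by 0.75 on the log2 scale (adjusted p = 0.327) at a mean of only 0.188 FPKM. Mapk14 had 175, 150.3 and 129 CPM in SS-31H_CS lungs, against 176, 187 and 173 CPM in CS lungs. SS-31H_CS 1 reached the CS range, and the log2 fold change was -0.24 (adjusted p = 0.379). Mapk11 and Mapk13, the other p38 genes, had log2 fold changes of -0.15 and -0.52, which turned to 0.08 and 0.02 without CS 3, with Mapk13 at 65.0 CPM in CS 3 and 22.3 to 32.6 CPM in the other 5 libraries. Mapk7, the gene of ERK5, and Mapk4 had log2 fold changes of -0.11 and 0.40, that of Mapk4 being 0.09 without CS 3.

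**Figure D3:**
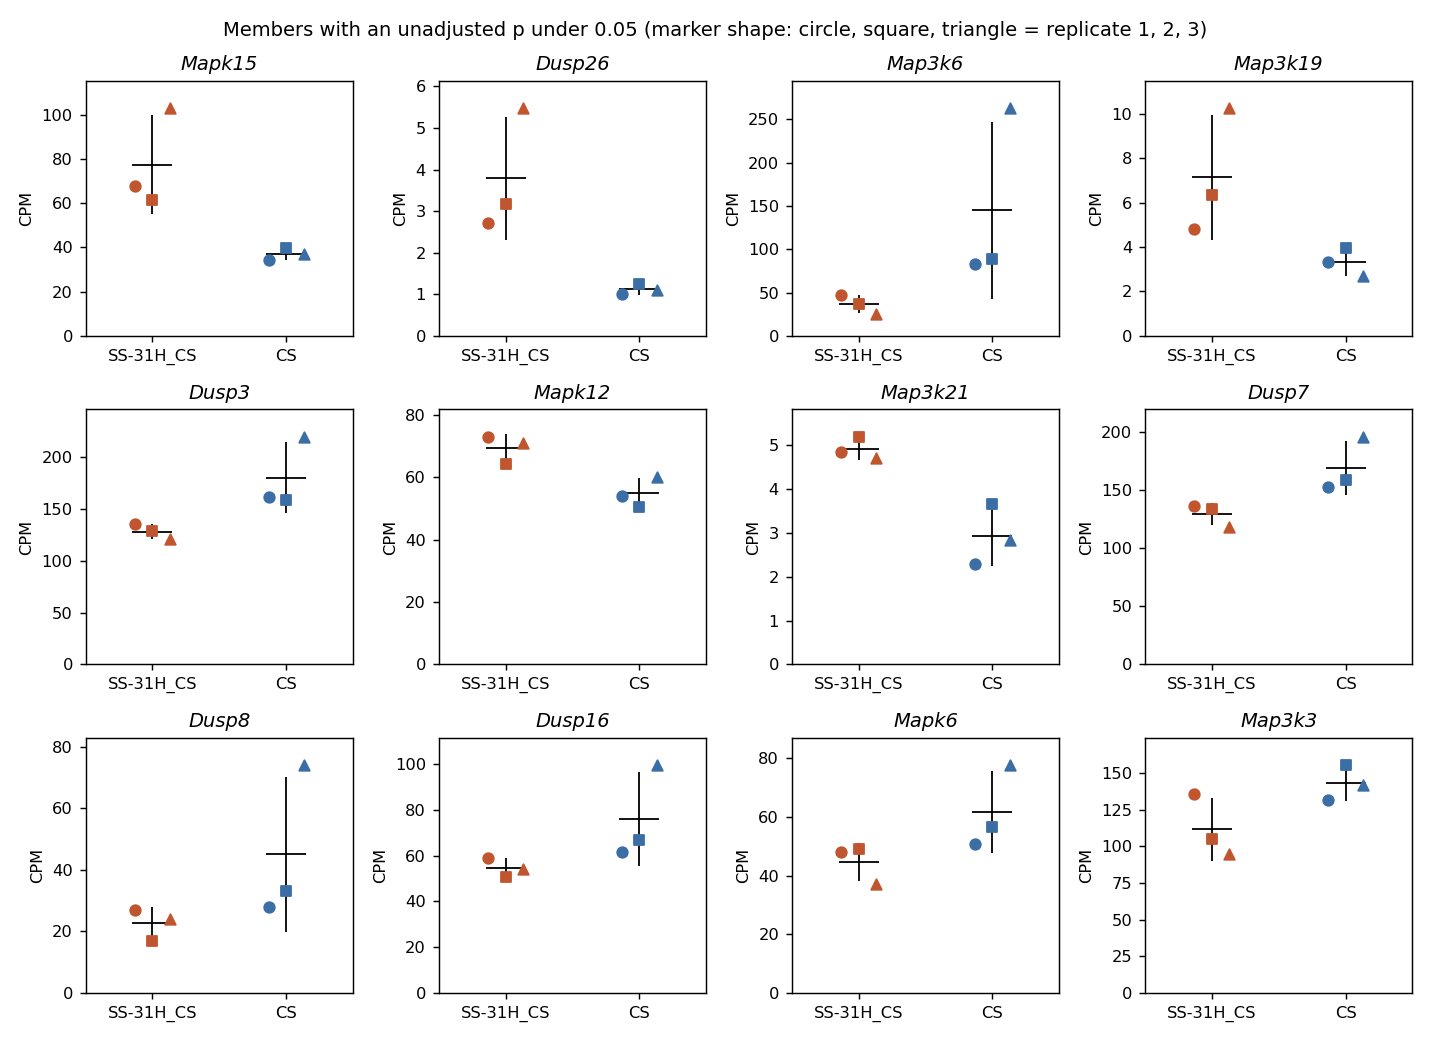
CPM (TMM-scaled) in each library for the 12 members with an unadjusted p under 0.05, SS-31H_CS left and CS right; circles, squares and triangles are replicates 1, 2 and 3, and bars give the mean and SD (n = 3). Only Map3k3 overlaps between the groups, and 6 of the 7 lower members are highest in CS 3, as are 27.5% of all genes. Lower members without overlap are highest in a CS library by definition, so this count follows in part from the selection.

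All 10 MAP kinase phosphatases were tested. Their median log2 fold change was -0.34, against 0.01 over all genes. Of the 10, 9 had a negative log2 fold change and 1 a positive one, against a positive value for 51.4% of all genes. An unadjusted p under 0.05 was reached by 3 (Dusp7, Dusp8 and Dusp16), all lower in SS-31H_CS lungs (background 8.23%). For 7 of the 10, CS 3 was the highest library, as it was for 27.5% of all genes. Without CS 3 the median was -0.20, and 9 log2 fold changes were negative. Of the 3 phosphatases named, only Dusp7 kept an unadjusted p under 0.05 without CS 3. Their summed FPKM was 208, 185 and 168 in SS-31H_CS lungs, against 207, 216 and 270.0 in CS lungs, so that SS-31H_CS 1 lay within the CS range.

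Dusp8, Dusp10 and Dusp16 act mainly on JNK and p38. Dusp8 (chr7:142079490-142095843, minus strand), whose promoter is printed above, had 27.0, 17.0 and 23.995 CPM in SS-31H_CS lungs, against 28.0, 33.0 and 73.9 CPM in CS lungs. The gap between the groups was about 1 CPM, and CS 3 was far above the rest. Its log2 fold change was -0.99 with an SE of 0.36 (edgeR adjusted p = 0.217), and -0.43 without CS 3. Dusp16 had 58.9, 50.5 and 54.2 CPM in SS-31H_CS lungs, against 61.6, 66.8 and 99.4 CPM in CS lungs. The groups did not overlap, and CS 3 was again the highest (log2 fold change -0.48 ± 0.18 SE, edgeR adjusted p = 0.232, and -0.24 without CS 3). Dusp10 had 14.2, 9.17 and 9.88 CPM in SS-31H_CS lungs, against 12.7, 11.2 and 13.2 CPM in CS lungs, with overlap and a log2 fold change of -0.16.

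The cytoplasmic phosphatases of ERK are Dusp6, Dusp7 and Dusp9. Dusp7 (chr9:106368632-106375724, plus strand) had 136, 134 and 119 CPM in SS-31H_CS lungs, against 153, 159 and 196 CPM in CS lungs. All SS-31H_CS libraries lay below all CS libraries (log2 fold change -0.38 ± 0.13 SE, edgeR adjusted p = 0.192). Dusp6, a feedback gene of ERK signalling, had 146, 158 and 183 CPM in SS-31H_CS lungs, against 165, 189.8 and 178 CPM in CS lungs. It overlapped between the groups (log2 fold change -0.13, adjusted p = 0.594). Dusp9 was near the floor, at 0.428 to 0.946 CPM in SS-31H_CS and 0.708 to 1.17 CPM in CS lungs.

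The nuclear phosphatases are Dusp1, Dusp2, Dusp4 and Dusp5. Dusp1, an immediate early gene that is also induced by glucocorticoids, had 291, 183 and 155 CPM in SS-31H_CS lungs, against 266, 244 and 401 CPM in CS lungs. SS-31H_CS 1 was above CS 1 and CS 2, so the groups overlapped (log2 fold change -0.53 ± 0.27 SE, edgeR adjusted p = 0.337). It was -0.29 without CS 3 and -0.85 without SS-31H_CS 1. Dusp2, a phosphatase of activated immune cells, was the single one with a positive log2 fold change. It had 7.03, 15.9 and 6.59 CPM in SS-31H_CS lungs, against 5.55, 7.85 and 4.51 CPM in CS lungs. SS-31H_CS 2, the library highest in T and NK cell markers, was the highest, and the log2 fold change was 0.72 ± 0.38 SE (edgeR adjusted p = 0.357), and 0.19 without that library. Dusp4 had 13.95, 13.7 and 11.3 CPM in SS-31H_CS lungs, against 13.7, 12.3 and 15.4 CPM in CS lungs, with overlap. Dusp5 had 14.7, 13.02 and 10.2 CPM in SS-31H_CS lungs, against 15.5, 12.7 and 18.3 CPM in CS lungs. It too overlapped (log2 fold change -0.29, and -0.16 without CS 3), and 22.1% of its exon bases lie opposite a gene on the other strand.

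Of the 14 atypical dual specificity phosphatases, 10 were tested, and 7 of these had a positive log2 fold change. Dusp26 (chr8:31089471-31097047, plus strand), a phosphatase best known from neural and endocrine tissue, had the highest log2 fold change of any member. It had 2.72, 3.18 and 5.47 CPM in SS-31H_CS lungs, against 1.003, 1.26 and 1.11 CPM in CS lungs. Each SS-31H_CS library was more than double any CS library, and SS-31H_CS 3 was the highest. The log2 fold change was 1.74 with an SE of 0.35 (edgeR adjusted p = 0.0889, and 0.00273 to 0.228 over the alternatives), and 1.38 without SS-31H_CS 3. Its level was low, at 1.67 ± 0.630 FPKM in SS-31H_CS and 0.480 ± 0.0625 FPKM in CS lungs (SD, n = 3 each). Dusp3, a small phosphatase that acts on ERK and JNK, had 136, 128 and 121 CPM in SS-31H_CS lungs, against 162, 159 and 219.7 CPM in CS lungs. All SS-31H_CS libraries lay below the CS libraries (log2 fold change -0.49 ± 0.15 SE, edgeR adjusted p = 0.165, and -0.33 without CS 3), with 12.9% of its exon bases opposite Gm20659.

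Dusp18, a phosphatase whose promoter is printed above, had 20.8, 22.2 and 41.5 CPM in SS-31H_CS lungs, against 21.1, 20.8 and 17.7 CPM in CS lungs. Its difference rested on SS-31H_CS 3, the other 5 libraries being close together (log2 fold change 0.50 ± 0.26 SE, edgeR adjusted p = 0.349, and 0.11 without SS-31H_CS 3). Dusp22, a phosphatase of T cell signalling, did not overlap between the groups, at 19.3 to 22 CPM in SS-31H_CS and 17.2 to 18.9 CPM in CS lungs (log2 fold change 0.21, adjusted p = 0.416). Dusp11, Dusp12, Dusp14, Dusp19, Dusp23 and Dusp28 had log2 fold changes between -0.29 and 0.18. For Dusp12, 49.8% of exon bases lie opposite other genes.

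Of the 7 lower members with an unadjusted p under 0.05, 6 were highest in CS 3 and 5 were lowest in SS-31H_CS 3. Of the 5 higher members, 3 were highest in SS-31H_CS 3. Over all genes, CS 3 was highest for 27.5%, and SS-31H_CS 3 was lowest for 19.5% and highest for 22%. Lower members without overlap are highest in a CS library and lowest in an SS-31H_CS library by definition. The counts thus follow in part from the selection. Leaving out CS 3 left 3 lower members (Map3k6, Dusp3 and Dusp7) and 5 higher members at an unadjusted p under 0.05. The background was 13.8% of all genes in either direction. Leaving out SS-31H_CS 3 left 3 lower and 6 higher members (14.5%, background 11.9%), and leaving out SS-31H_CS 2 left 4 lower and 5 higher (14.5%, background 14.6%).

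Other gene lists also differed between the libraries. All 10 tested genes of 11 ciliated cell markers, among them Foxj1, the main regulator of motile cilia, were higher in SS-31H_CS lungs at an unadjusted p under 0.05. Foxj1 had a log2 fold change of 1.31 (edgeR adjusted p = 0.0728). The markers summed to 715, 780.1 and 1095 CPM in SS-31H_CS lungs, against 554, 527 and 373 CPM in CS lungs. SS-31H_CS 3 was thus the highest library for this list, as it was for Mapk15, Map3k19 and Dusp26, and for 22% of all genes. The list was lowest in CS 3, as was Map3k19, whereas Mapk15 and Dusp26 were lowest in CS 1. Mapk15 was also higher in SS-31H_CS 1 than in SS-31H_CS 2, unlike the list, Map3k19 and Dusp26. None of the 11 ciliated cell markers was at 0 in all libraries, and the planned list held a further marker that was not among them. Neuron and glia markers, with 5 of 8 tested and Th at 0, summed to 9.52, 12.3 and 14.4 CPM in SS-31H_CS lungs, against 6.85, 8.02 and 6.17 CPM in CS lungs. Of those 5, 3 had a positive and 2 a negative log2 fold change. Of 8 club cell markers, 5 were higher in SS-31H_CS lungs at an unadjusted p under 0.05, and they summed to 39710, 29240 and 64080 CPM in SS-31H_CS lungs, against 29910, 24900 and 24970 CPM in CS lungs, again highest in SS-31H_CS 3. Alveolar macrophage markers (5 of 10 lower) summed to 902 to 1304 CPM in SS-31H_CS and 1936 to 2337 CPM in CS lungs, and endothelial markers (4 of 8 lower) to 3411 to 4453 CPM in SS-31H_CS and 4764 to 5757 CPM in CS lungs. The part of these lists in the values of Mapk15, Map3k19, Dusp26 and the other members was not tested.

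Of 12 genes that glucocorticoids induce, 10 were lower in SS-31H_CS lungs at an unadjusted p under 0.05, among them Fkbp5, a regulator of the glucocorticoid receptor, with a log2 fold change of -2.30 (edgeR adjusted p = 0.0994). The 12 genes summed to 1031, 1124 and 1161 CPM in SS-31H_CS lungs, against 1690, 1602 and 2892 CPM in CS lungs. CS 3 was the highest library for this list, as it was for Map3k6, Dusp8, Dusp16 and Dusp1. It was also the highest for 22 of the 62 tested members and for 27.5% of all genes. Dusp1 differed from the list in SS-31H_CS 1, where its 291 CPM lay above CS 1 (266 CPM) and CS 2 (244 CPM). The part of the list in those values was not tested.

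**Figure D4:**
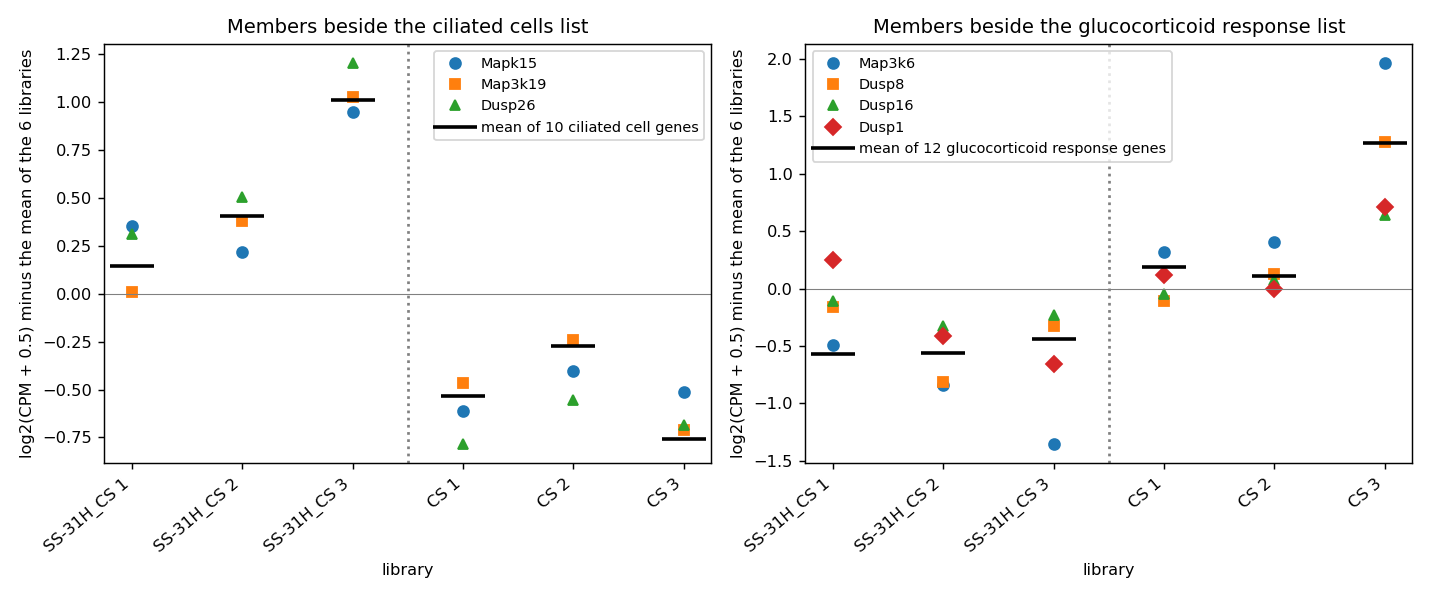
Members beside marker and response lists, as log2(CPM + 0.5) minus the mean of the 6 libraries for each library (SS-31H_CS left of the dotted line, CS right); symbols are members and bars the mean over the list. At left, Mapk15, Map3k19, Dusp26 and the mean of the 10 ciliated cell genes are each highest in SS-31H_CS 3. At right, Map3k6, Dusp8, Dusp16, Dusp1 and the mean of the 12 glucocorticoid-induced genes are each highest in CS 3. Over all genes, SS-31H_CS 3 is the highest library for 22% and CS 3 for 27.5%.

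Around the members, no gene of the pathway lists passed an adjusted p of 0.05 in edgeR, and the counts that follow are at an unadjusted p under 0.05. Upstream, 1 of 12 genes of the RAS and RAF input was lower, Shc1, the adaptor of growth factor receptors (log2 fold change -0.36). Of 14 genes of stress input, 1 was higher, Txnip, the inhibitor of thioredoxin (0.37), and 2 were lower: Ripk1, a kinase of the tumour necrosis factor receptor (-0.40), and Gadd45g, an activator of a MAP3K (-0.64). Of 6 tested scaffold genes, Ksr1, the scaffold of RAF, MEK and ERK, was lower (-0.42). Downstream, 2 of 10 tested kinases activated by MAP kinases were lower, the ribosomal S6 kinases Rps6ka2 (-0.46) and Rps6ka3 (-0.37), and Rps6ka6 was at 0 in every library.

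Of 14 tested nuclear targets, the transcription factor Mef2c was higher (0.55) and the AP-1 subunit Fosl2 lower (-0.51). Among 10 feedback genes of the ERK pathway, Ier3 was higher (0.43) and Spry4, an inhibitor of receptor tyrosine kinase signalling, lower (-0.98). The median of that list was -0.08. Of 12 other phosphatases, 1 was higher, the pseudophosphatase Styxl1 (1.01). These shares, 1 of 12 to 3 of 14, lie around the 18.2% of all genes.

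The 5 members left out by the filter had few counts. Map4k2 had 1, 3 and 0 counts in SS-31H_CS libraries, against 11, 2 and 1 in CS libraries. Dusp27, a pseudophosphatase of muscle, had 7, 10 and 3 counts in SS-31H_CS libraries, against 5, 3 and 4 in CS libraries. Dusp13 had 2 to 8 counts in SS-31H_CS and 3 to 7 in CS libraries, and Dusp15 had 1 to 3 in SS-31H_CS and 0 to 2 in CS libraries. Dusp21 had 0 counts in every library, which allows up to 0.185 CPM. These levels do not allow a comparison at this depth. Exon overlap of 10% or more with a gene on the other strand was present for 8 members, so their counts depend on a strand setting that is not given in the sources used here.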

How the data were processed

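Lung RNA was sequenced in 6 libraries. The submitters' processing notes name the genome GRCm38 and the tools HTSeq 0.6.1, HISAT2 2.0.1 and cutadapt 1.9.1. The annotation release and strand setting are not given in the sources used here. Raw counts were deposited by Ensembl identifier and tested; the deposited FPKM were used for levels between genes. All 6 columns of per-library values were used. GENCODE M21 symbols matched 55394 genes, and 179 did not match. The members, lists, roles and motifs were chosen with earlier results of these data known.

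Counts were compared with edgeR 4.0.16 in R 4.3.3 (TMM, low-count filter with a minimum count of 10 and a minimum total of 15, quasi-likelihood test, two-sided, Benjamini-Hochberg adjustment over all genes tested). Fold changes (log2) have SS-31H_CS on top and CS below. CPM used TMM-scaled library sizes. The code was tested on simulated data. A p above the threshold does not show that levels are equal, and counting floors cover counting error only. Alternatives were RLE size factors, no filter, a filter of 1 CPM in 3 libraries, DESeq2 1.42.0, limma 3.58.1 voom, a block for the replicate number, a threshold of 0.1 on the adjusted p, and 6 fits without 1 library each. Values per library are given for the 14 tested members with the lowest p, for a fixed set of 22 members and for the highest FPKM in each tier, except 1 member that is not reported here; Dusp18 and Mapk13 were added after their values were seen. Other members are given by fold changes or ranges, and pathway genes are at most the 3 lowest p in each list.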

Additional observations from a re-analysis of the deposited data

How the results depend on the processing

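The number of members at an adjusted p under 0.05 was 0 with edgeR, 3 without the filter on low counts (Map3k6, Mapk15 and Dusp26), 4 in DESeq2 and 2 at an adjusted p under 0.1. It was 0 with RLE size factors, the stricter filter, limma voom, the replicate block and each library left out. Over all genes the count of 26 became 648 without the filter, 948 in DESeq2, 6 in limma voom, 299 at an adjusted p under 0.1 and 0 with the replicate block, and 1 to 15 with a library left out (15 without CS 3). Members lower at an unadjusted p under 0.05 numbered 3 to 10 with a library left out, against 7, and higher members 5 to 7, against 5; in both directions together they were 12.9% to 27.4% of members, beside 11.9% to 19.1% of all genes. The cause was not tested. No pairing by replicate number was evident (same-number correlations 0.02, 0.03 and -0.07), although so few libraries cannot exclude it. A fit with the replicate block gave 7 higher and 5 lower members (19.4%, beside 15.8% of all genes). Not every library correlated best with its own number. The median log2 fold change of the members stayed between -0.11 and -0.04 with a library left out. Of 33 members followed under each alternative, the log2 fold change turned sign with a library left out for Map2k3 (-0.188 to 0.0831, positive without SS-31H_CS 2 or CS 3, at 0.0641 for CS 3), Map2k6 (-0.377 to 0.124, positive without CS 1, at 0.0303, or CS 2), Mapk3 (-0.0194 without CS 3 to 0.199) and Mapk8 (-0.0864 without SS-31H_CS 3 to 0.121, and -0.0159 without CS 1). Over 12 alternatives for each of the 33 members, 382 values kept direction and side of the threshold, 7 passed it in addition and 7 turned sign. None of the 33 had passed an adjusted p of 0.05 in the main fit. Of all 62 tested members, 14 turned sign with a library left out. Members under 1 CPM, such as Dusp9, are limited by depth.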
